A study of Danio rerio with 6 samples.

Results

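The transcripts described here encode the proteins of the cytosolic ribosome, measured in whole zebrafish larvae with and without a microbiota. They were chosen by gene symbol, as probesets whose platform symbol starts with rpl or rps and a digit, or with rplp, leaving out 5 probesets of the rps6k kinases. This took 78 of 15502 tested probesets, standing for 73 of 8793 named genes: 46 probesets of the large subunit, 29 of the small subunit, and 3 of rpl7l1 and rps19bp1, whose products are not subunits of the ribosome. Of 80 canonical subunits, 65 had a member probeset. The genes rpsa, rack1, faua and faub encode subunits that the symbol rule misses, and they are described separately. For rpl32 the probeset carries a second gene symbol and was left out. Canonical subunits with no probeset under these names were not analysed here.

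Larvae of strain C32 were studied at 6 days post-fertilization, all of them reared in gnotobiotic conditions. The conventionalized larvae stayed germ-free up to day 3 and then carried a microbial community from conventionally raised zebrafish up to day 6. The germ-free larvae carried none throughout. Each group had 3 pools of 28 to 80 intact larvae, and each pool was hybridised to 1 Affymetrix array, so 6 arrays were compared and the number of pools limits the precision. A conventionally raised group was not analysed here, and a pool is an average over larvae and over every tissue, in which fewer cells of a type and less RNA per cell cannot be told apart.

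A ribosome is built from ribosomal RNAs and one copy of most of its proteins, with the stalk proteins as the known exception. The small subunit reads the messenger RNA, and the large subunit joins amino acids and guides the growing chain out through an exit tunnel. Messenger RNAs of ribosomal proteins are among the most abundant in growing cells, and in vertebrates most of them begin with a pyrimidine tract, the TOP element, through which TOR signalling and the binding protein Larp1 set how strongly they are translated. An array measures the level of these messenger RNAs and not their translation. Levels are intensities on the authors' linear scale, and a level belongs to its probeset: different probesets bind with different strength, so the values do not rank the genes by abundance. Changes are differences of log2(intensity + 32), conventionalized minus germ-free, each with the standard error (SE) of the limma fit over all tested probesets.

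No ribosomal protein transcript was called different between conventionalized and germ-free larvae, and every estimate lay close to 0. Of the 78 probesets, 0 were called higher and 0 lower at an adjusted p under 0.05 (limma, Benjamini-Hochberg over all probesets), against 1.70% of all tested probesets called in either direction, 1.28% higher and 0.413% lower. The smallest adjusted p of a member was 0.149, for rps27.2. At an unadjusted p under 0.05 there were 4 members, which is 5.13% of the members beside 13.2% of all probesets. Of these, rps15, rps6 and rps3a lay on the higher side, beside 8.54% of all probesets, and rps27.2 on the lower side, beside 4.68%. The log2 changes spanned -0.22 for rpl27a to 0.19 for rps15, so the largest difference in either direction on that scale was 1.16-fold. It was not the largest ratio of intensities. The dim rpl21 probeset averaged 12.3 in conventionalized and 17.4 in germ-free pools, which the constant added before the logarithm shrinks to a log2 change of -0.15. The median log2 change over the members was 0.03, beside 0.02 over all probesets. A change of less than 0.1 on the log2 scale was measured for 63 of the 78, against 50.6% of all tested probesets. The share was 48.0% of those with a mean intensity of at least 1000, a limit chosen after the values were seen. These 498 probesets include 73 members and are not matched in brightness. Their median intensity was 1904, against 4726 for the 73 members.

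The estimates behind these counts had narrow intervals. For the 73 members with a mean intensity of at least 1000, the 95% interval extended 0.131 on either side of the log2 change in the median and at most 0.266, against a median of 0.23 over all probesets. The median SE was 0.059 for these members, against 0.084 over all probesets with a mean intensity of at least 1000. The part of brightness in the narrow intervals was not tested. The fit draws variances toward an intensity trend, and intervals without that trend were not counted. Without the trend, 1 member rather than 4 had an unadjusted p under 0.05 (limma), and the smallest adjusted p was 0.3. Across these 73 the intervals reached no lower than -0.48 and no higher than 0.37, that is, between 0.715-fold and 1.29-fold. The interval lay wholly within 1.2-fold in either direction for 68 of the 78 members (20.6% of all probesets), and within 1.5-fold for 78 (90.3% of all probesets). Both shares are over probesets of any brightness, and shares at the members' brightness were not counted. The interval limits are on the log2(intensity + 32) scale. There the added 32 narrows the interval of the dim rpl21 probeset, so that probeset sets no limit on a fold. Among all 498 probesets with a mean intensity of at least 1000, 36 were called, 28 higher and 8 lower, with absolute log2 changes of 0.29 to 2.03.

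**Figure D1:**
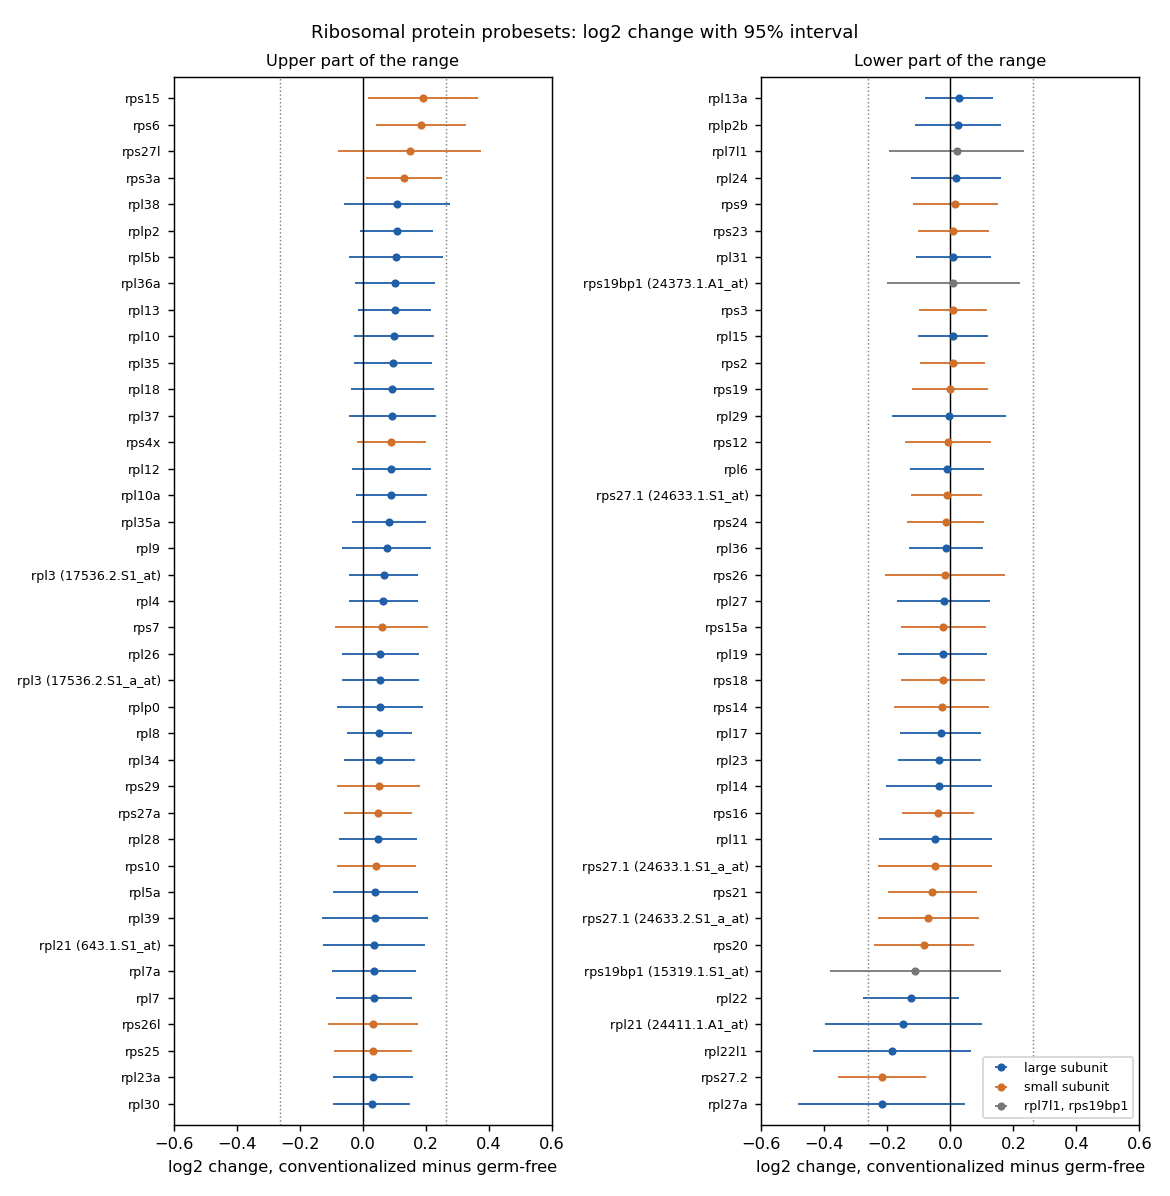
The log2 change of each of the 78 ribosomal protein probesets (points) with its 95% interval (bars), conventionalized minus germ-free, sorted by size over 2 panels and coloured by subunit. Dotted lines mark 1.2-fold. The points lie between -0.22 and 0.19, and 4 intervals, those of rps15, rps6, rps3a and rps27.2, do not include 0.

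The probesets are bright. Their mean intensities had quartiles of 3774, 4600 and 5440, and 99.4% of all tested probesets were dimmer than the median member. The highest intensity of a member was 8989, for rps2 in germ-free replicate 3, and the highest of the table was 12268. How far such bright probesets compress a difference was not tested. Of 137 probesets at or above the members' lower quartile, 58 were members and 4 others were called. These calls do not measure compression. The polyubiquitin gene ubb was one of the 4, at 7637 ± 343 in conventionalized and 6091 ± 409 in germ-free pools (SD, n = 3 each; log2 change 0.33, limma adjusted p = 0.0279), although not after quantile normalization (adjusted p = 0.0734), after centring the arrays (0.0587), with variances without a trend (0.134), or without conventionalized replicate 1 (0.12), conventionalized replicate 2 (0.176) or germ-free replicate 1 (0.0843). Of the other 3, crybb1 had a log2 change of -0.29 and a probeset of apoa4b.2 one of -0.40. The call of crybb1 was lost with variances without a trend (limma adjusted p = 0.158) and with the replicate block (0.0816). It was also lost without any 1 of the 6 pools (0.0582 to 0.161). The call of the apoa4b.2 probeset among the 4 was lost with variances without a trend (adjusted p = 0.102), with the replicate block (0.0626), and without conventionalized replicate 1 (0.149), conventionalized replicate 2 (0.211), germ-free replicate 1 (0.151) or germ-free replicate 2 (0.0938). A dimmer apoa4b.2 probeset (log2 change -0.50, limma adjusted p = 0.0204) stayed called without a trend (0.0366) and with the block (0.0356). Its call was lost without conventionalized replicate 1 (0.0904), conventionalized replicate 2 (0.123), germ-free replicate 1 (0.0871) or germ-free replicate 2 (0.0645). The last of the 4 probesets has no gene symbol, and its identifier differs from that of the ubb probeset only in the suffix. Its log2 change was 0.37 (limma adjusted p = 0.0278), so the 4 calls may stand for fewer genes. That call was not followed through the alternatives. Beside ubb, rps27a, which encodes ubiquitin fused to a small subunit protein, had 7185, 7217 and 7164 in conventionalized pools, against 7088, 6642 and 7112 in germ-free pools. These groups did not overlap, but the difference was 0.05 ± 0.05 (SE) on the log2 scale with an adjusted p of 0.711.

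**Figure D2:**
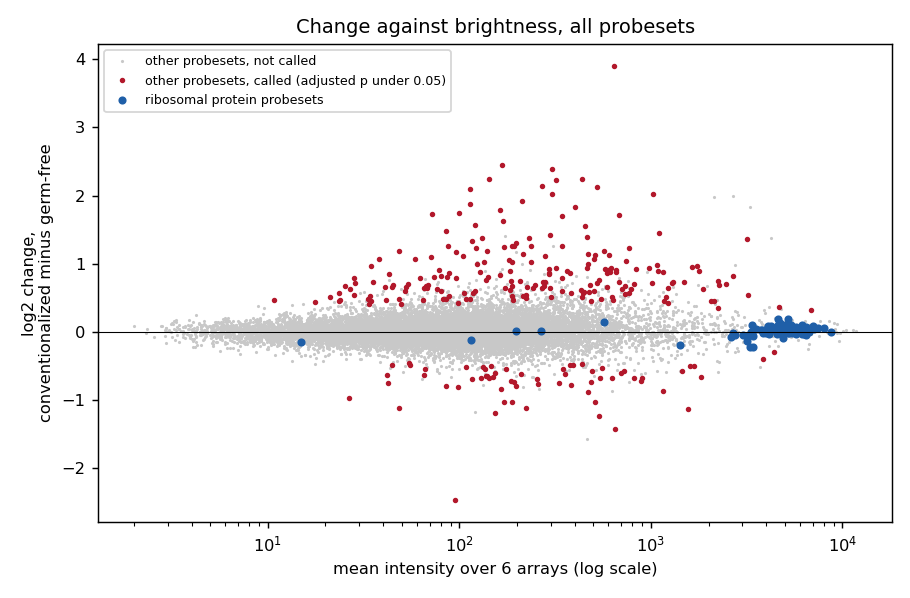
The log2 change (vertical, conventionalized minus germ-free) against the mean intensity over 6 arrays (horizontal, log scale) of every tested probeset. The ribosomal protein probesets (blue) gather at the bright end, with quartiles of 3774 to 5440, and stay within -0.22 and 0.19, while 263 other probesets (red) were called.

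Among proteins of the small subunit, the highest changes of the whole family were found. The gene rps15, whose product lies in the head near the decoding site, had 5401, 5418 and 5795 in conventionalized pools and 5047, 4267 and 5272 in germ-free pools. All 3 conventionalized pools lay above the germ-free ones, the closest gap being that to germ-free replicate 3, and germ-free replicate 2 was the low one. Its log2 change was 0.19 ± 0.08 (SE), with a 95% interval of 0.02 to 0.37 and an adjusted p of 0.332. For rps6, the substrate of the S6 kinases, the values were 4741, 5033 and 4965 in conventionalized pools, against 4307, 4030 and 4635 in germ-free pools. Again no pools overlapped and germ-free replicate 2 was lowest. The change was 0.18 ± 0.06 (SE), with an interval of 0.04 to 0.33 and an adjusted p of 0.248. The gene rps3a had 4835, 5014 and 4954 in conventionalized and 4585, 4329 and 4595 in germ-free pools, a change of 0.13 ± 0.05 (SE) with an adjusted p of 0.334.

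Several other small subunit genes lay close to 0, but not all. For rps4x the groups did not overlap, with a change of 0.09 ± 0.05 (SE, limma adjusted p = 0.467). The genes rps27l and rps27.2 are described below. The gene rps2, whose product lines the channel where the messenger RNA enters, was the brightest member on average and had 8712, 8632 and 8923 in conventionalized pools, against 8812, 8346 and 8989 in germ-free pools (change 0.01 ± 0.05 SE). Its neighbour at the entry, rps3, averaged 6383 ± 136 in conventionalized and 6350 ± 134 in germ-free pools (SD, n = 3 each). The decoding centre protein gene rps23 averaged 5807 ± 98.5 in conventionalized and 5768 ± 151 in germ-free pools. For rps19, the gene most often mutated in Diamond-Blackfan anaemia in humans, the means were 4835 ± 158 in conventionalized and 4838 ± 96.8 in germ-free pools. In a list of 10 measured genes that cause this anaemia in humans or are zebrafish copies of such genes, 0 were called. Their changes ran from -0.05 for rpl11 to 0.11 for rpl5b. The list does not hold every such gene, and rps27.2, with a change of -0.22, was not on it. Over the 29 small subunit probesets the median change was 0.01, with 15 above and 14 below 0, but with 8 above 0 after quantile normalization and 11 after centring the arrays. Of all 15502 probesets, 8558 were above 0 with the deposited scaling, 7318 after quantile normalization and 7351 after centring.

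The lowest estimates belonged to genes of both subunits, several of them members of paralogous pairs. The gene rps27.2, one of the zebrafish copies encoding a zinc finger protein of the small subunit, had 3137, 3305 and 3017 in conventionalized pools, against 3590, 3613 and 3807 in germ-free pools. Every conventionalized pool lay below every germ-free pool. The change was -0.22 ± 0.06 (SE), with an interval of -0.36 to -0.08 and an adjusted p of 0.149. After quantile normalization it was -0.28 and was called lower (adjusted p = 0.0449), as the one member called under any alternative tried. Its paralog rps27.1, read by 3 probesets, had changes of -0.01, -0.05 and -0.07 with adjusted p-values of 0.732 to 0.945, and its brightest probeset averaged 5257 ± 123 in conventionalized and 5302 ± 78.4 in germ-free pools. Another relative, rps27l, a target of p53 in mammals, lay on the other side of 0, at 568, 676 and 555 in conventionalized and 558, 542 and 509 in germ-free pools. Those groups overlapped, since conventionalized replicate 3 lay below germ-free replicate 1, and the change was 0.15 ± 0.10 (SE) with an adjusted p of 0.58. Differences between the paralogs' changes were not tested.

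For rpl22, which encodes an RNA-binding protein at the rim of the large subunit, the pools had 2836, 3159 and 3129 when conventionalized and 3213, 3265 and 3476 when germ-free. The groups did not overlap, by a margin of 3159 against 3213, and the change was -0.13 ± 0.07 (SE) with an adjusted p of 0.476. Its paralog rpl22l1, which the Rpl22 protein restrains in mice, had 1113, 1352 and 1517 in conventionalized pools, against 1456, 1438 and 1617 in germ-free pools. Here the groups overlapped, conventionalized replicate 1 was the low pool, and the change was -0.18 ± 0.11 (SE) with an adjusted p of 0.523. The lowest estimate of the family, that of rpl27a, followed from 2833, 3182 and 3086 in conventionalized pools and 3343, 3009 and 4371 in germ-free pools. Germ-free replicate 3 stood apart and germ-free replicate 2 lay within the conventionalized range, so the interval of its change ran from -0.48 to 0.05 (adjusted p = 0.475). Below 0 as well were rps20 (-0.08 ± 0.07 SE) of the small subunit head and rps21 (-0.06 ± 0.06 SE), with adjusted p-values of 0.66 and 0.748.

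Further pairs of related genes gave estimates near each other. The gene rpl5b had a change of 0.11 ± 0.07 (SE) and rpl5a one of 0.04 ± 0.06. For rps26l the change was 0.03 ± 0.06 and for rps26 it was -0.02 ± 0.09. The gene rpl7l1, whose mammalian relative acts in ribosome assembly, stayed at 271, 266 and 270 in conventionalized pools, against 289, 246 and 261 in germ-free pools. On the brighter probeset of rps19bp1, which encodes a binding partner of Rps19, the means were 198 ± 15.0 in conventionalized and 197 ± 3.39 in germ-free pools, and on the dimmer one 110 ± 22.3 and 120 ± 3.67 in the same order of groups. Neither probeset was called (adjusted p = 0.979 and 0.75).

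**Figure D3:**
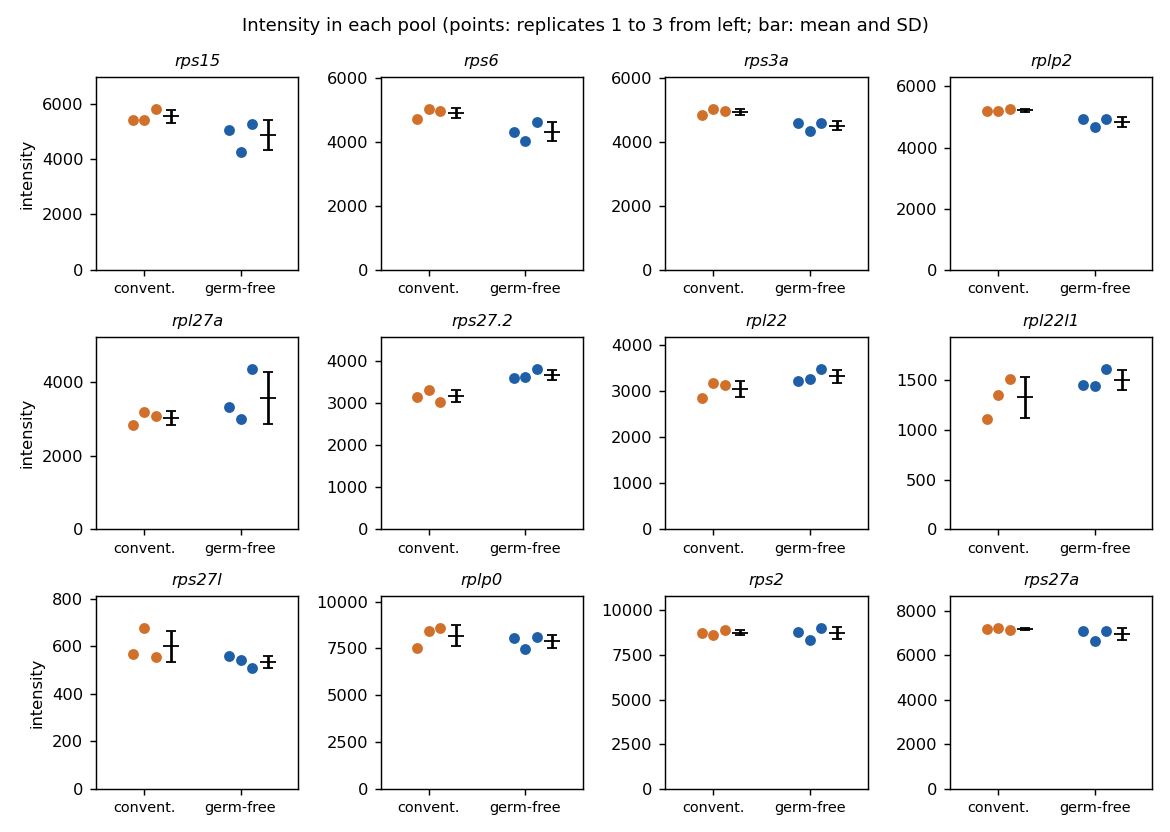
Intensity (vertical axis from 0) in each pool for 12 ribosomal protein genes, conventionalized at the left and germ-free at the right, with points for replicates 1 to 3 and bars for the mean and SD of 3 pools. In rps15, rps6, rps3a, rplp2 and rps27a the conventionalized pools lie above the germ-free ones, in rps27.2 and rpl22 below, and in rps2 and rplp0 the groups overlap.

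In the large subunit, 33 of 46 probesets had an estimate above 0 with the deposited scaling, 19 after quantile normalization and 28 after centring the arrays, and the median was 0.04, -0.01 and 0.01 under the 3 scalings. Over all 15502 probesets, 8558, 7318 and 7351 were above 0 under the same 3 scalings. The stalk, which recruits the elongation factors, was read by rplp0, rplp2 and rplp2b. Its anchor rplp0, often used as a reference gene, had 7535, 8449 and 8571 in conventionalized and 8048, 7470 and 8104 in germ-free pools, with groups that overlapped and a change of 0.05 ± 0.06 (SE). The gene rplp2 had 5201, 5184 and 5255 in conventionalized pools, against 4926, 4666 and 4924 in germ-free pools. These did not overlap, and the change was 0.11 ± 0.05 (SE) with an adjusted p of 0.422. For its copy rplp2b the change was 0.02 ± 0.06, and for rpl12 at the stalk base it was 0.09 ± 0.06.

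At the peptidyl transferase centre, where peptide bonds form, rpl3 had changes of 0.06 ± 0.06 and 0.07 ± 0.05 (SE) on its 2 probesets, rpl8 one of 0.05 ± 0.05 and rpl10, which joins the subunit late in its assembly, one of 0.10 ± 0.06. The gene rpl36a, whose product touches the leaving transfer RNA, averaged 5383 ± 190 in conventionalized and 5013 ± 222 in germ-free pools (change 0.10 ± 0.06 SE, adjusted p = 0.486). Of the 9 measured genes of the exit tunnel and its rim, 6 had estimates above 0 with the deposited scaling, 3 after quantile normalization and 5 after centring, and 0 were called under any of them. In this group rpl4 averaged 6350 ± 172 in conventionalized and 6065 ± 101 in germ-free pools, and rpl17 averaged 4528 ± 115 and 4629 ± 211 in the same order of groups. The proteins that bind the smallest ribosomal RNA of the large subunit and can restrain the p53 inhibitor Mdm2 were read by rpl5a, rpl5b and rpl11. The gene rpl11 had 3091, 3213 and 3247 in conventionalized and 3135, 3058 and 3714 in germ-free pools, where germ-free replicate 3 was the high one (change -0.05 ± 0.08 SE, adjusted p = 0.851). The gene rpl38, whose loss in mice disturbs skeletal patterning, averaged 3502 ± 263 in conventionalized and 3242 ± 195 in germ-free pools (change 0.11 ± 0.08 SE, adjusted p = 0.581).

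In 4 genes more than 1 probeset could be compared. Those of rpl3 both lay above 0 and those of rps27.1 all below, none of them called, and the pair of rps19bp1 is described above. For rpl21 the bright probeset gave 3836 ± 116 in conventionalized and 3746 ± 320 in germ-free pools, a change of 0.04 ± 0.07 (SE). Its other probeset, the dimmest of the family, averaged 12.3 ± 3.61 in conventionalized and 17.4 ± 6.85 in germ-free pools, a change of -0.15 ± 0.11 (SE, adjusted p = 0.614). Such values lie below the added 32, and whether that probeset detects the rpl21 transcript was not tested.

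The groups did not overlap for 14 members on the higher side, 17.9% of them beside 12.5% of all tested probesets, and for 2 on the lower side, 2.56% beside 7.08%. Both sides together made 20.5% of the members and 19.6% of all probesets. Germ-free replicate 2 was the lowest of the 6 arrays for 39 of the 78 members, against a smaller share, 28.3%, of all probesets. Conventionalized replicate 3 and germ-free replicate 3 were each the highest for 24 members, beside 23.1% and 20.6% of all probesets. Measured as the deviation from each probeset's own mean over the 6 arrays, the median member stood at -0.01, 0.02 and 0.03 log2 units in conventionalized pools 1 to 3 and at -0.01, -0.06 and 0.02 in germ-free pools 1 to 3. The 498 probesets with a mean intensity of at least 1000, 73 of them members, followed a like course. Their median was -0.01, 0.03 and 0.05 in conventionalized pools and 0.00, -0.06 and 0.01 in germ-free pools. The distance between germ-free replicates 2 and 3 was therefore larger than the median change between the groups. Without germ-free replicate 2, 43 members had an estimate above 0 and the median was 0.01.

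**Figure D4:**
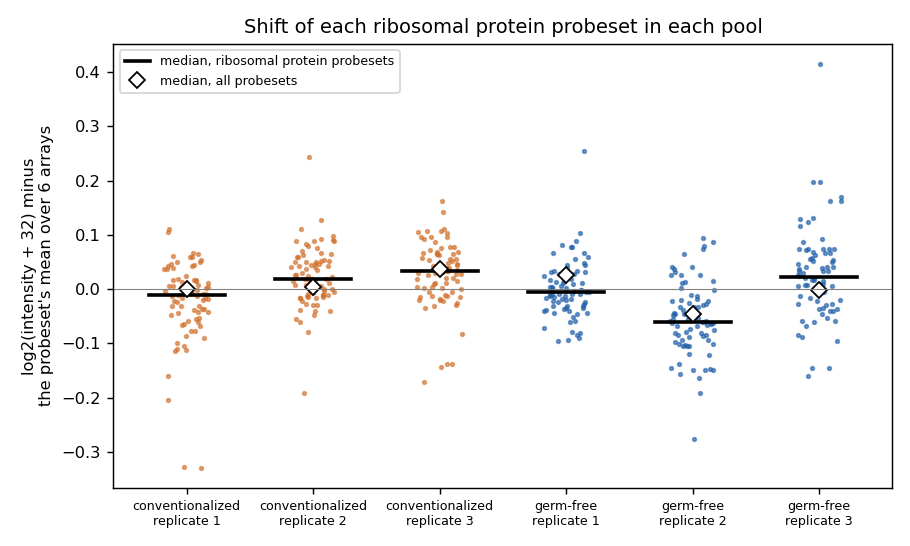
Deviation of each of the 78 ribosomal protein probesets (points) from its own mean over the 6 arrays, in log2(intensity + 32), with the median of the members (bars) and of all tested probesets (diamonds) in each pool. The members' median lies between -0.06 in germ-free replicate 2 and 0.03 in conventionalized replicate 3.

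With the deposited scaling 50 of the 78 estimates were above 0, beside 55.2% of all probesets. After quantile normalization 27 were above 0, with a median of -0.03. After centring each array on its median 39 were, with a median of 0.00053, so the family has no settled direction. All 15502 probesets moved as well, to 7318 above 0 after quantile normalization (median -0.01) and 7351 after centring (median -0.01). Over all probesets the calls also moved with the scaling, from 199 higher and 64 lower to 191 and 120 after quantile normalization and 195 and 98 after centring. As a share of the summed intensity of all tested probesets, the members took 10.2% ± 0.152 in conventionalized pools and 10.4% ± 0.243 in germ-free pools (SD, n = 3 each). They took 10.20%, 10.32% and 10.02% in conventionalized pools 1 to 3, against 10.09%, 10.52% and 10.50% in germ-free pools 1 to 3, and the groups overlapped. The acta1 control probesets, which report RNA integrity, gave a 3′ over 5′ log2 ratio of 2.98, 3.00 and 2.79 in conventionalized pools and 2.35, 2.64 and 2.47 in germ-free pools. These ratios did not overlap between the groups. The part of RNA integrity in the members' values was not tested and cannot be told apart from that of the microbiota.

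Of 4 probesets for subunits that the symbol rule misses, 0 were called. All 4 had estimates above 0 with the deposited scaling, and 3 after quantile normalization or after centring. Their median change was 0.08 with the deposited scaling, beside 0.03 over the members. The gene rpsa, whose product sits at the messenger RNA exit and is also known as a laminin receptor, had 8733, 9196 and 9066 in conventionalized pools, against 8397, 7576 and 8139 in germ-free pools. These groups did not overlap, and the change was 0.16 ± 0.05 (SE) with an adjusted p of 0.189. For rack1, a scaffold protein on the small subunit head, the means were 6956 ± 266 in conventionalized and 6484 ± 430 in germ-free pools (change 0.10 ± 0.06 SE). The ubiquitin-like fusion gene faua averaged 4262 ± 146 in conventionalized and 4190 ± 39.1 in germ-free pools (change 0.02 ± 0.06 SE), and the related gene faub averaged 237 ± 21.2 in conventionalized and 226 ± 23.2 in germ-free pools (change 0.06 ± 0.11 SE).

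Genes around the ribosome were counted the same way. Of 69 probesets of mitochondrial ribosomal proteins, which serve the separate ribosome of the mitochondrion, 0 were called, and their median change was 0.00. Of 92 probesets of translation factors and of some further transcripts known to carry a TOP element in mammals, 0 were called, with a median of 0.02. The factors were taken by symbol, whether or not their transcripts carry the element. Among them the elongation factor gene eef1a1l1 had 9167, 9371 and 9327 in conventionalized pools, against 9139, 8682 and 9121 in germ-free pools (change 0.05 ± 0.04 SE, adjusted p = 0.68). The translationally controlled tumour protein gene tpt1 averaged 6236 ± 173 in conventionalized and 6276 ± 64.7 in germ-free pools. The lowest estimate in this list was that of the dimmest of 3 probesets of the poly(A)-binding protein gene pabpc1a. There the values were 466, 530 and 539 in conventionalized and 692, 485 and 1914 in germ-free pools (change -0.73 ± 0.37 SE, adjusted p = 0.446), where germ-free replicate 3 stood far above the rest and the groups overlapped. The translational repressor gene eif4ebp3l averaged 516 ± 7.88 in conventionalized and 417 ± 28.8 in germ-free pools and was not called (adjusted p = 0.193).

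Of 53 probesets for ribosome assembly and ribosomal RNA synthesis, 0 were called, with a median of 0.02. The pseudouridine synthase gene dkc1 had the lowest estimate, at 158 ± 5.58 in conventionalized and 214 ± 21.4 in germ-free pools (change -0.37 ± 0.10 SE, adjusted p = 0.118). The RNA polymerase I subunit gene polr1a had the highest, at 171 ± 3.53 in conventionalized and 126 ± 32.2 in germ-free pools (change 0.39 ± 0.14 SE, adjusted p = 0.275). Of 10 probesets of p53 targets, 0 were called; mdm2 averaged 150 ± 20.9 in conventionalized and 129 ± 5.04 in germ-free pools (adjusted p = 0.546). In the TOR list 1 of 20 probesets was called higher and 0 lower, beside 1.28% higher and 0.413% lower of all probesets. The called probeset was that of ddit4, an inhibitor of TOR complex 1 also named Redd1. It had 118, 114 and 95.2 in conventionalized pools, against 31.1, 27.5 and 42.1 in germ-free pools (change 1.11 ± 0.11 SE, adjusted p = 0.000571). Its groups lay far apart, but its germ-free values lie near the added 32, so the size of its change depends on the pseudocount. The change was 1.34 with a pseudocount of 16 and 0.646 with 100, called in each (limma adjusted p = 0.00066 and 0.000555). A minimum mean intensity of 100 left this probeset out. In the list, 1 probeset was likewise called higher after quantile normalization and after centring. The gene larp1 averaged 322 ± 21.8 in conventionalized and 337 ± 7.70 in germ-free pools (adjusted p = 0.837).

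**Figure D5:**
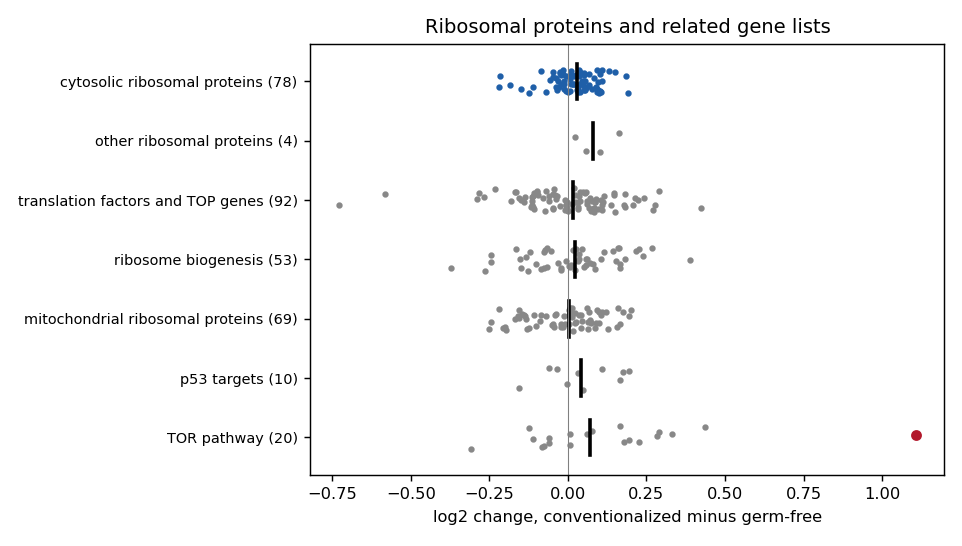
The log2 change (horizontal, conventionalized minus germ-free) of every probeset in 7 gene lists, with the number of probesets in brackets and a black bar at each median. One point, ddit4 in the TOR list at 1.11, was called (red), and the ribosomal protein probesets (blue) lie between -0.22 and 0.19. After quantile normalization the medians of the cytosolic and mitochondrial ribosomal proteins, the translation factors and the ribosome biogenesis list lie below 0. The median of all probesets is then below 0 as well, at -0.01.

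Markers of tissues in the whole larva were measured beside these genes, and some differed between the groups. Over all probesets, 1.28% were called higher and 0.413% lower. Neutrophil and macrophage markers were called higher for 8 of 14 probesets and lower for 0, with a summed intensity of 2145 to 2582 in conventionalized and 811.5 to 865 in germ-free pools. Photoreceptor markers were called lower for 5 of 10, with sums of 6875 to 9255 in conventionalized and 11043 to 12414 in germ-free pools. Of exocrine pancreas markers, from cells rich in ribosomes, 1 of 11 was called lower, and the sums were 39146 to 45362 in conventionalized and 45410 to 49062 in germ-free pools. Erythrocyte markers were called higher for 2 of 7, with sums of 8094 to 13596 in conventionalized and 1659 to 5876 in germ-free pools. The 2 were alas2 and hbbe2. Most of the sums came from 2 probesets of hbae3, which were not called (limma adjusted p = 0.0578 and 0.062). Those of slc4a1a, hbaa1 and hbbe3 were not called either (0.0969, 0.857 and 0.667). Hepatocyte markers were called higher for 3 of 8, with sums of 12748 to 16221 in conventionalized and 9741 to 11154 in germ-free pools. The 3 were tfa, fga and fgb. The other 5 probesets, of fabp10a, apoa2, apoba and ambp, were not called (limma adjusted p = 0.131 to 0.963). Of 20 probesets of dividing cells, 11 of neurons and 15 of skeletal muscle, 0 were called. No marker probeset was at 0, the lowest averaging 6.89. The part of these cell types in the ribosomal protein values was not tested.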

How the data were processed

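Whole-larva RNA from 6 pools was measured on Affymetrix arrays. The authors deposited linear intensities. According to the design text, they came from dChip, with invariant set normalization and a perfect match minus mismatch model. That method assumes probes whose rank is stable, so a shift shared by most genes would be removed. Scanner files and the authors' present and absent calls were not used here.

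Of 15617 probesets, 115 controls were left out. Gene symbols are those of the array's platform table, some of them possibly outdated; all 78 members were found by Entrez identifier in a table of the GRCz12tu assembly, with 0 changed symbols. For all 15502 probesets, log2(intensity + 32) was compared between the groups with limma 3.58.1 in R 4.3.3 (moderated variances with an intensity trend, two-sided, Benjamini-Hochberg over all probesets, called at an adjusted p under 0.05). Log2 changes on this scale understate those of dim probesets. The fit was tested on simulated data with planted changes larger than that of any member, so that test does not bear on changes of the members' size. No 2 arrays shared an identical value, and correlations between arrays were 0.97 to 0.992.

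Members, lists and tests were chosen with earlier results of these data known. The rule for named genes took called members, the 8 highest and 8 lowest changes at a mean intensity of at least 100, the stalk, paralogs, the brightest and dimmest probeset and subunits missed by the symbol rule; other members are named by role and were chosen after their values were seen, as were the role groups. Replicate numbers are shared between the groups without a label that ties the pools, so the fit has no block. The number ending the title of germ-free replicate 3 lies apart from the consecutive numbers of the other arrays. What these numbers stand for is not stated in the labels, and their part in the values was not tested. The alternatives were pseudocounts of 16 and 100, quantile normalization, centring on array medians, a minimum mean intensity of 100, variances without a trend, array weights, a replicate block, 1 probeset per gene, other choices of members and leaving out each pool.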

Additional observations from a re-analysis of the deposited data

How the results depend on the processing

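Under 17 alternatives the number of ribosomal protein probesets called higher stayed at 0, and the number called lower at 0, except that 1, rps27.2, was called lower after quantile normalization (log2 change -0.285, adjusted p = 0.0449). For the other choices of members the main fit was reused, so their 0 calls were fixed in advance. Of these sets, 1 held all 78 members. The members' median was 0.0282 as reported and -0.0275 after quantile normalization, the one shift larger than the spread of 0.0334 between arrays of a group. Leaving out 1 pool at a time gave 0 calls in either direction and medians of 0.0149 to 0.04. A replicate block gave 0 calls and a median of 0.0282. The deviations of same-numbered pools had correlations of -0.0841, 0.0971 and 0.0693 for numbers 1 to 3. Differently numbered pools gave -0.164 to 0.0946. With 3 pools per group these values cannot decide whether the numbers pair the pools. Array weights called 569 probesets in all and 0 members; the total was 137, 114 and 173 without conventionalized replicate 1, conventionalized replicate 2 and germ-free replicate 1, and 410 without germ-free replicate 3.

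Of 430 values of 29 named probesets under alternatives, 404 kept sign and side of the threshold, and 25 changed sign, with adjusted p-values of 0.648 to 0.994. After quantile normalization these were rplp2b (-0.0278), rps26l (-0.0441), rpl7l1 (-0.0267), the brighter rps19bp1 probeset (-0.0319), rpl5a (-0.0274), rps2 (-0.0384) and faua (-0.0422). After centring they were rplp2b (-0.0032), rpl7l1 (-0.00775), rps19bp1 (-0.0189), rps2 (-0.0205) and faua (-0.00402), and with array weights rpl7l1 (-0.0321), rps19bp1 (-0.00979) and rps2 (-0.00417). On leaving out 1 pool at a time, the sign also turned, within -0.0091 to 0.061 for rplp2b, -0.0022 to 0.0815 for rps26l, -0.0275 to 0.0765 for rpl7l1, -0.0236 to 0.0297 for rps2, -0.0415 to 0.0504 for the brighter and -0.194 to 0.0252 for the dimmer rps19bp1 probeset, and -0.116 to 0.0109 and -0.0255 to 0.00677 for 2 probesets of rps27.1. The cause was not tested. Intensity limits what dim probesets can show: 5 of the 78 members had a mean intensity under 1000.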
